A study of Rattus norvegicus with 6 samples.

Results

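The transcripts described here are those of 8 genes of the tendon-like fibrous tissue that covers the mandibular condyle: Scx, Mkx, Prrx1, Tnmd, Postn, Tnc, Fn1 and Fap. They were picked by symbol from the deposited gene table, and where a symbol had several rows the protein-coding row with the highest mean level was taken. All 8 were found, and all 8 were among the 30668 genes tested of 44746 genes in the table. The samples were condylar cartilage of female Sprague-Dawley rats that were 6 weeks old at the start, collected after 8 weeks, with 3 libraries from rats with unilateral anterior crossbite (UAC) and 3 from control rats (CON). UAC is a dental procedure that shifts the bite on one side of the front teeth, loads the jaw joint abnormally and is used as a rat model of osteoarthritis of the temporomandibular joint (TMJOA), so the comparison asks which RNAs differ in the cartilage of loaded joints. The sources used here do not say how many rats went into a library, nor whether CON rats had a sham procedure. Every p-value below therefore compares 3 with 3 libraries, not known numbers of rats. Those of edgeR, DESeq2 and limma also draw on the variation of other genes.

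The mandibular condyle differs from most joint surfaces in being covered by a fibrous layer rich in type I collagen, under which lie a layer of dividing progenitors and then chondrocytes. The cells of this layer share genes with tendon and periosteum. In tendon, the transcription factors scleraxis and mohawk drive collagen production, tenomodulin marks mature tendon cells, and the secreted proteins periostin, tenascin-C and fibronectin are laid down around the collagen fibres, where they bind integrins and respond to mechanical load. None of these genes is limited to the fibrous layer, since bone, periosteum, vessel walls and blood plasma also hold their products.

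None of the 8 genes passed the test between UAC and CON. Postn and Tnc were lower in each of the 3 UAC libraries than in any CON library, and the values of the other 6 genes overlapped. Postn averaged 552 ± 97.0 FPKM in UAC and 758 ± 105 FPKM in CON, and Tnc 147 ± 8.40 FPKM in UAC and 178 ± 10.3 FPKM in CON (SD, n = 3 each). FPKM, fragments per kilobase of transcript with library size scaled out, is the authors' level per gene length, so levels of different genes can be set side by side. Groups lay apart in this way for 2 of these 8 genes, both lower, where 5.87% of all genes tested were lower in every UAC library and 9.84% were higher in every UAC library. The adjusted p-values of the 8 genes ran from 0.539 to 0.994 (edgeR quasi-likelihood test, Benjamini-Hochberg over all 30668 genes), with 0.0196% of all genes called at 0.05, 0.00978% in each direction. Before adjustment, 2 of the 8 genes had p under 0.05 and were lower and 0 were higher, where 4.39% of all genes were lower and 4.69% higher (9.08% in all). DESeq2 and limma also called 0 of the 8.

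**Figure D1:**
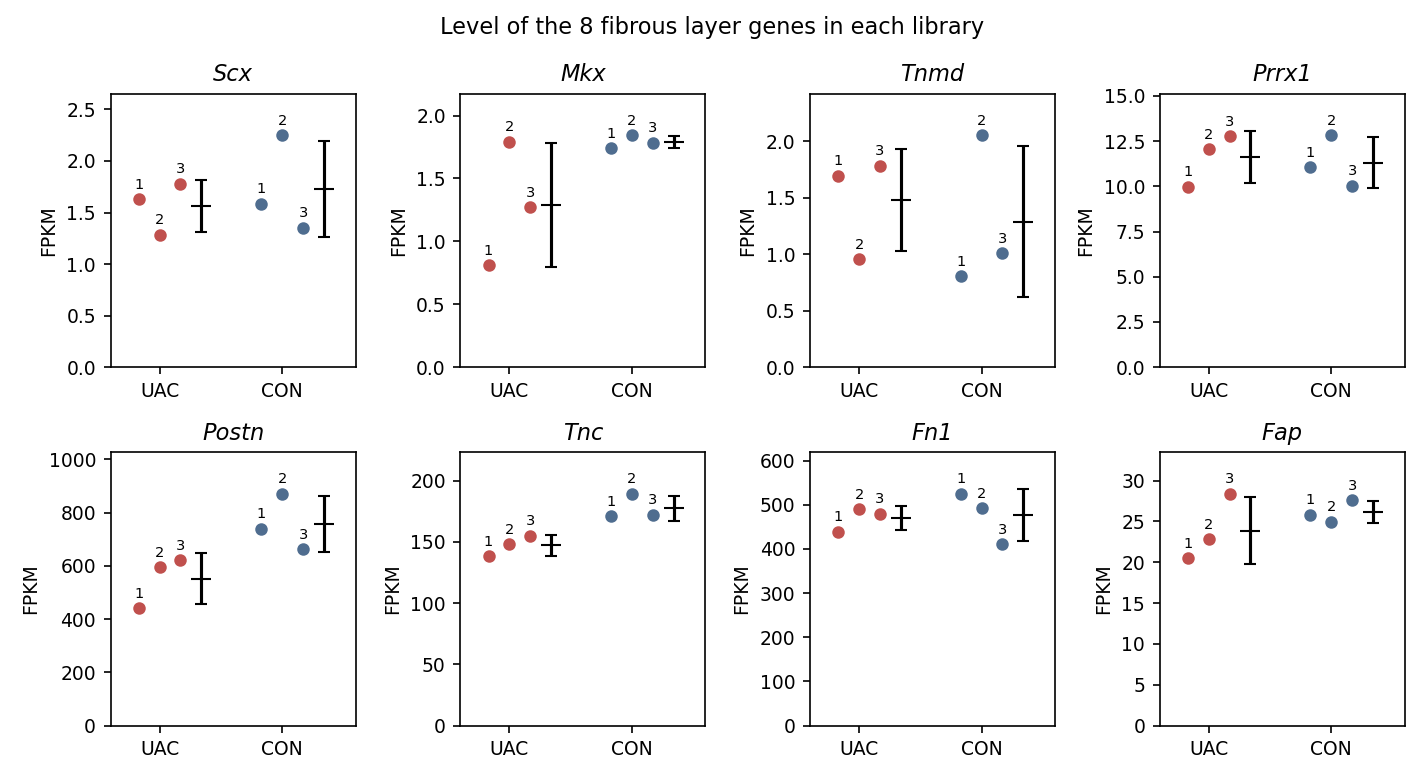
Level of each gene in FPKM (vertical axis, starting at 0) in the 3 UAC libraries (red) and the 3 CON libraries (blue), numbered by replicate, with the group mean and SD as black bars. For Postn the UAC points end at 621 FPKM, below the lowest CON point at 663 FPKM, and for Tnc they end at 155 FPKM, below 171 FPKM, while the points of the other 6 genes overlap.

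Promoter sequences are shown for Postn and Tnc, the genes whose groups lay apart, and for Fap, which holds a scleraxis-type E-box. They are the 250 bases before the gene start from RefSeq on the GRCr8 assembly, and 6 of the 8 genes had an entry (Tnmd, Mkx, Postn, Tnc, Prrx1 and Fap). The deposited coordinates are not on that assembly, and their build is not stated. The deposited Postn row starts at chr2:143656793, whereas the promoter ends at chr2:140678060, so positions of the 2 sources cannot be set side by side. Capitals mark CANNTG, the E-box that basic helix-loop-helix factors such as scleraxis bind. The Postn promoter is at chr2:140677811-140678060 (plus strand), that of Tnc at chr5:82476132-82476381 (minus strand) and that of Fap at chr3:67616092-67616341 (minus strand), all written 5′ to 3′ on the gene's strand.
Postn: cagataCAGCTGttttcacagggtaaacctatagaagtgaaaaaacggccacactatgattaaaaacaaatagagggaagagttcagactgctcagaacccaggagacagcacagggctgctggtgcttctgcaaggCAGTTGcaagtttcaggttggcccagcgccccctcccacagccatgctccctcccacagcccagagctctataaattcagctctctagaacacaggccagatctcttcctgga
Tnc: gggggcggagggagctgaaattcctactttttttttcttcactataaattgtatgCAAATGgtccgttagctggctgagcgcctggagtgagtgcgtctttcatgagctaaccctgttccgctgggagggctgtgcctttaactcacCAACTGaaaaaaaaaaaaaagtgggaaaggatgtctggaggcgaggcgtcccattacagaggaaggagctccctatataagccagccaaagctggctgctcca
Fap: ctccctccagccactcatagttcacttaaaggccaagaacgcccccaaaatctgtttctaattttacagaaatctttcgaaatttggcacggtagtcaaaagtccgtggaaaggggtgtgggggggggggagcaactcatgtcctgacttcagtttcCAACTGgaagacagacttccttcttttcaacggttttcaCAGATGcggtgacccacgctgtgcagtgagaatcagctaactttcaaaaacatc

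Each of these 3 promoters held 2 E-boxes, and the promoters of Tnmd, Mkx and Prrx1 held none. Those of Postn began 244 and 113 bases before the gene start, those of Tnc 195 and 103 bases before it, and those of Fap 93 and 54 bases before it. Such a box was present, on either strand, in 65.5% of 33469 RefSeq promoters cut to the same length. The scleraxis-type form CAGATG, which overlaps the general E-box, was found in 14.0% of all promoters and here only in that of Fap, in its box nearest to the start. An AP-1 site (TGANTCA) occurs in 6.34% of all promoters, and the shorter letters of a TEAD site (GGAATG) occur in 12.1%. Neither was found on either strand of these 6 genes' promoters.

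The levels of the 8 genes ranged from very abundant matrix genes, through Fap and Prrx1, to 3 scarce genes. Postn averaged 655 FPKM over the 6 libraries, Fn1 473, Tnc 162, Fap 25.0 and Prrx1 11.5 FPKM, and each of these was above the next in all 6 libraries, although the ranges of Postn and Fn1 overlap. Scx at 1.65, Mkx at 1.54 and Tnmd at 1.38 FPKM had overlapping ranges, Scx being above Mkx in 3 of the 6 libraries and Mkx above Tnmd in the other 3, so they could not be ranked. Among the 15001 protein-coding genes tested, Postn stood at the 99.9th percentile of mean level Fn1 at the 99.8th, Tnc at the 99.3rd, Fap at the 94.2nd and Prrx1 at the 85.9th, whereas Scx, Mkx and Tnmd stood at the 26.9th, 25.8th and 24.1st. The tendon regulators Scx and Mkx and the surface marker Tnmd thus ranked low in this bulk RNA. The matrix genes Postn, Fn1 and Tnc carried most of the reads of these 8 genes. They are not limited to the fibrous layer, and which tissue their reads came from was not tested.

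Library totals were 71524713 to 86523541 counts in UAC and 80960444 to 85923949 in CON. The 8 genes took 0.849% to 0.988% of the counts in UAC libraries and 0.966% to 1.16% in CON libraries. Col2a1, the main collagen of cartilage, averaged 1448 ± 485 FPKM in UAC and 1447 ± 401 FPKM in CON (SD, n = 3 each) and was abundant in every library. Acan, the gene of aggrecan, averaged 244 ± 73.2 FPKM in UAC and 230 ± 38.0 FPKM in CON (SD, n = 3 each). The paper reports both as significantly decreased in UAC, in a measurement that it describes before the sequencing. Every library also held RNA of tissues beside cartilage, such as bone (Spp1, the most abundant marker of the list, 1559 to 1678 FPKM in UAC and 1521 to 1773 FPKM in CON), osteoclasts, marrow and muscle, and no listed marker with a row was at 0 in all libraries. In such bulk samples, fewer cells of a type and less RNA per cell cannot be told apart.

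Scx encodes scleraxis, the basic helix-loop-helix factor that marks tendon progenitors. Its row (MSTRG.26188, chr7:117519075-117521093, plus strand) gave 1.63, 1.29 and 1.78 FPKM in UAC1, UAC2 and UAC3, against 1.59, 2.25 and 1.35 FPKM in CON1, CON2 and CON3. The groups overlapped, with CON2 highest and UAC2 lowest. Its log2 fold change was -0.20 ± 0.27 (SE; 95% interval -0.84 to 0.44; adjusted p = 0.868 by edgeR), from only 139 to 228 counts per library. Scx lies inside the span of Bop1, a ribosome assembly gene on the opposite strand at 7.21 ± 0.582 FPKM in UAC and 7.16 ± 0.149 FPKM in CON (SD, n = 3 each). Whether counting used strand is not stated, so reads of the pair cannot be told apart.

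Mkx encodes mohawk, a homeobox factor that in mouse tendon is needed for collagen fibril growth. Mkx (ENSRNOG00000018938, chr17:60537935-60549750, plus strand) had 0.809, 1.79 and 1.27 FPKM in UAC1 to UAC3, against 1.74, 1.84 and 1.79 FPKM in CON1 to CON3. The CON libraries lay close together and the UAC libraries were spread, with UAC2 inside the CON range and UAC1 and UAC3 under it. The coefficient of variation was 38.2% in UAC and 2.83% in CON. Counting alone gives about 7.37% at 184 counts, the mean over all 6 libraries, and somewhat less at the 219 to 222 counts of the CON libraries. The narrow CON spread is under counting error. The log2 fold change was -0.50 ± 0.32 (SE; 95% interval -1.26 to 0.25; adjusted p = 0.666 by edgeR), about as large as that of Postn but with a wider interval. It was -0.24 without UAC1 and -0.84 without UAC2.

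Prrx1 encodes a paired-type homeobox factor of limb and craniofacial mesenchyme. It measured 9.99, 12.1 and 12.8 FPKM in the UAC libraries, against 11.1, 12.8 and 10.0 FPKM in the CON libraries (MSTRG.8782, chr13:81147348-81214494, minus strand). The ranges were nearly the same. The log2 fold change of -0.0049 ± 0.15 (SE; 95% interval -0.36 to 0.35; adjusted p = 0.994 by edgeR) had no stable sign over the alternatives. A further row carries the symbol Prrx1, a 2-exon RNA of 8490 bases on the plus strand within an intron (MSTRG.8783, chr13:81196399-81204910), which the authors list as a long noncoding transcript. It had 7.64, 8.16 and 8.97 FPKM in UAC and 7.77, 8.32 and 7.23 FPKM in CON, with a log2 fold change of 0.04 ± 0.11 (SE; adjusted p = 0.937 by edgeR). Neither row of the locus passed the test, and both had overlapping groups.

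Tnmd encodes tenomodulin, a transmembrane glycoprotein of mature tendon and ligament cells that is a scleraxis target in mouse. The Tnmd row (MSTRG.711, chrX:104684676-104700173, plus strand) read 1.69, 0.955 and 1.78 FPKM in UAC, against 0.803, 2.05 and 1.01 FPKM in CON. CON2 was the highest library and CON1 the lowest, so the UAC values sat inside the CON range. Tnmd was the only one of the 8 with a positive log2 fold change, 0.13 ± 0.43 (SE; 95% interval -0.88 to 1.15; adjusted p = 0.951 by edgeR). Without CON2 it was 0.68 and without CON1 it was -0.11, so its direction turned with a single library.

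Postn encodes periostin, a matricellular protein of periosteum, ligament and fibrous tissue that binds type I collagen and aids its cross-linking. Postn (MSTRG.15670, chr2:143656793-143688085, plus strand) stood at 441, 595 and 621 FPKM in UAC1 to UAC3, against 739.6, 871 and 663 FPKM in CON1 to CON3. The groups were apart, by the narrow gap between UAC3 and CON3, with UAC1 well under the rest and CON2 well above. The log2 fold change was -0.50 ± 0.20 (SE; 95% interval -0.97 to -0.03), with an unadjusted p of 0.0412 that became 0.539 after adjustment (edgeR), and 2331st place among the p-values of all genes. The unadjusted edgeR p was 0.0759 without UAC1, 0.0760 without CON1 and 0.137 without CON2.

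Tnc encodes tenascin-C, a large glycoprotein of tendon, perichondrium and loaded or healing matrix. Its values (MSTRG.22351, chr5:79789671-79874671, minus strand) were 138, 148 and 155 FPKM in UAC, against 171, 189 and 172 FPKM in CON. The Tnc libraries agreed closely within groups, with coefficients of variation of 5.71% in UAC and 5.77% in CON, and a clear gap between them. The log2 fold change was -0.31 ± 0.13 (SE; 95% interval -0.62 to -0.0059; unadjusted p = 0.0468, adjusted p = 0.547 by edgeR). Leaving out any library moved the unadjusted edgeR p above 0.05, to between 0.0521 (without UAC3) and 0.161 (without CON2), while the fold change stayed between -0.35 and -0.24.

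Fn1 encodes fibronectin, the adhesive glycoprotein that integrins assemble into fibrils and that binds tenascin-C and periostin. It came to 439, 490.3 and 479 FPKM in UAC, against 525, 492 and 411 FPKM in CON (MSTRG.29366, chr9:78900103-78969078, minus strand). All UAC libraries fell within the CON range. Its log2 fold change of -0.06 ± 0.16 (SE; 95% interval -0.44 to 0.32; adjusted p = 0.938 by edgeR) has an interval that spans both directions.

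Fap encodes fibroblast activation protein, a surface serine protease of remodelling fibroblasts. Fap (MSTRG.18319, chr3:48467781-48536512, minus strand) had 20.5, 22.8 and 28.4 FPKM in UAC, against 25.8, 25.0 and 27.6 FPKM in CON. UAC1 and UAC2 were under every CON library and UAC3 was above them all. The log2 fold change was -0.17 ± 0.13 (SE; 95% interval -0.48 to 0.14; adjusted p = 0.731 by edgeR). It was -0.31 without UAC3 and -0.05 without UAC1.

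**Figure D2:**
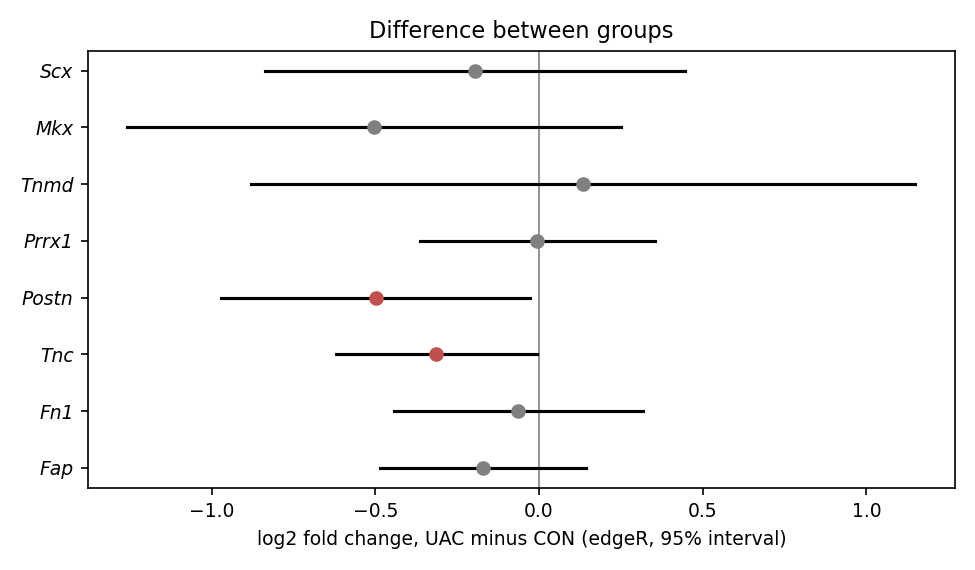
Log2 fold change of each gene, UAC minus CON (horizontal axis), as points with 95% intervals from edgeR, red where the unadjusted p was under 0.05. The intervals of Postn (-0.97 to -0.03) and Tnc (-0.62 to -0.0059) end just below 0 and those of the other 6 genes cross it, the widest being Tnmd (-0.88 to 1.15).

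Over the 8 genes, 7 log2 fold changes were negative and 1 was positive, with a median of -0.18, beside -0.0020 over all genes tested and -0.04 over the protein-coding ones. No gene of the 8 met the study's own thresholds (p under 0.05 before adjustment and a log2 fold change beyond 1 in either direction). Of all genes tested, 1.88% met them, made up of 0.681% of all genes that were lower and 1.2% of all genes that were higher. The shift was not shared by the 3 UAC libraries. The median deviation of the 8 genes from the CON mean was -0.26 in UAC1, -0.23 in UAC2 and 0.04 in UAC3 on the log2 scale, against -0.03 in CON1, 0.14 in CON2 and -0.17 in CON3. UAC1 was the lowest of the 6 libraries for 5 genes (Mkx, Postn, Tnc, Prrx1 and Fap), and CON2 was the highest for 6, all but Fn1 and Fap.

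**Figure D3:**
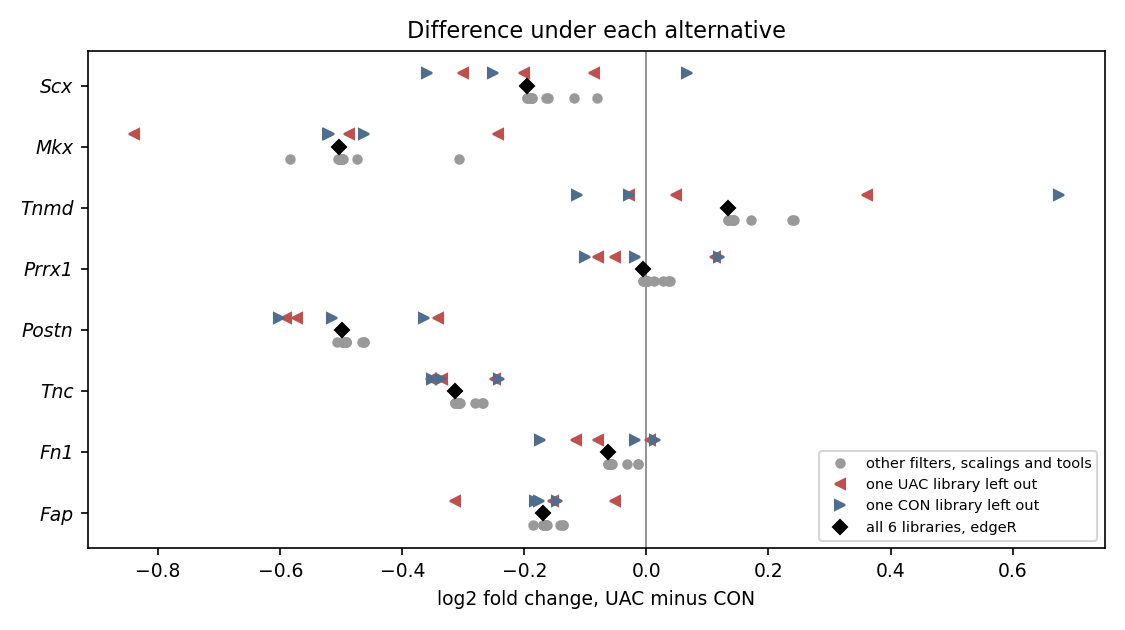
Log2 fold change of each gene, UAC minus CON (horizontal axis), with all 6 libraries (black diamonds), with 1 UAC library left out (red triangles), with 1 CON library left out (blue triangles) and under other filters, scalings and tools (grey). Postn stayed between -0.60 and -0.34 and Tnc between -0.35 and -0.24 with a library left out, whereas Tnmd ran from -0.11 to 0.68.

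The genes did not vary as a single block. Between members, the likeness of patterns over the 6 libraries was measured as the mean absolute difference of log2 levels, each centred on its gene mean, so that smaller values mean more alike. Fn1 and Prrx1 were the most alike at 0.0948, followed by Tnc and Fap at 0.103 and Postn and Tnc at 0.120, and Tnmd and Mkx were the least alike at 0.704. Scx and Tnmd, the tendon factor and its target, differed by 0.269. These distances are descriptions over 6 libraries that share depth and tissue makeup. They are not scaled by the spread of each gene, so genes that vary little lie close whatever their order of libraries.

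Outside the 8, the closest of 12028 protein-coding genes to Postn were Angptl2 (0.0414), a secreted angiopoietin-like protein, and Zfp185 (0.0419). The pattern of Tnc was nearest to Adcy3 (0.0188), an adenylyl cyclase, and Mmp14 (0.0276), a membrane-bound collagenase. Sspn (0.0152), a dystrophin complex protein, and Gpt2 (0.0251), an alanine aminotransferase, lay nearest to Fn1, and the receptor gene Ror1 (0.0263) and Tdrd3 (0.0337) lay nearest to Prrx1. Slc25a39 (0.0290), a mitochondrial carrier, and Ccnyl1 (0.0298) were nearest to Fap. The scarce genes had looser matches, Pianp (0.0654) and Ghrl (0.0703) for Scx, Aamdc (0.0899) and Myl3 (0.106) for Mkx, and Ankrd12 (0.161) and Stat5b (0.198) for Tnmd.

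A further 103 tested genes of 116 listed put the 8 in their setting, namely other tendon matrix and regulator genes, receptors and assembly partners, relatives of the 8, and fibroblast and progenitor genes. None passed in edgeR, while 6 were higher and 15 lower with p under 0.05 before adjustment, together 20.4% of them beside 9.08% of all genes. Their median log2 fold change was -0.12. DESeq2, which called 358 genes where edgeR called 6, called 6 of these 103 (Egr1, Angptl7, Bmp1, Ccn2, Gli1 and Cd34), and limma called none.

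Among 37 tendon matrix and regulator genes, 2 were higher and 2 lower with p under 0.05 before adjustment, and the median log2 fold change was -0.14. Egr1, a load-responsive zinc finger factor that promotes tendon collagen, averaged 4.53 ± 0.203 FPKM in UAC and 6.76 ± 0.769 FPKM in CON (log2 fold change -0.62 ± 0.11 SE; adjusted p = 0.423 by edgeR and 0.00128 by DESeq2). Angptl7 went the other way, at 6.69 ± 2.04 FPKM in UAC and 2.48 ± 0.412 FPKM in CON (log2 fold change 1.38 ± 0.27; adjusted p = 0.441 by edgeR and 1.17e-04 by DESeq2). Tgfbr2, a receptor of the growth factor TGF-β, averaged 11.8 ± 0.214 FPKM in UAC and 13.1 ± 0.755 FPKM in CON (log2 fold change -0.19; adjusted p = 0.537 by edgeR). Col1a1, the main collagen chain of fibrous tissue and bone, was the most abundant, at 13131 ± 1178 FPKM in UAC and 15628 ± 1135 FPKM in CON, with groups apart (log2 fold change -0.30 ± 0.28; adjusted p = 0.786 by edgeR). Its unadjusted p depended on the fit. It was 0.328 in this edgeR fit, 0.0573 with robust edgeR and 0.0342 with edgeR on protein-coding genes only. By DESeq2 it was 0.0124, and by limma on log2(FPKM + 0.1) it was 0.909. No fit called Col1a1 after adjustment.

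Of 29 receptors and partners of fibronectin, tenascin-C and periostin, 2 were higher and 4 lower by that measure (median log2 fold change -0.05). Bmp1, the procollagen C-proteinase that periostin binds, averaged 21.6 ± 1.68 FPKM in UAC and 28.3 ± 0.724 FPKM in CON (log2 fold change -0.44 ± 0.08; adjusted p = 0.441 by edgeR and 0.00211 by DESeq2). Ccn2, the connective tissue growth factor, was at 117 ± 40.1 FPKM in UAC and 55.4 ± 7.64 FPKM in CON (log2 fold change 1.04 ± 0.25; adjusted p = 0.452 by edgeR and 0.00148 by DESeq2), so it lay opposite to Bmp1. Egfr, a growth factor receptor, had a log2 fold change of -0.25 ± 0.08 (adjusted p = 0.500 by edgeR), and Sparc, an abundant collagen-binding protein, 4406 ± 286 FPKM in UAC and 5060 ± 202 FPKM in CON (log2 fold change -0.24 ± 0.16; adjusted p = 0.687 by edgeR). The fibronectin receptor chains Itga5 and Itgb1 had log2 fold changes of -0.04 and -0.09.

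Relatives of the 8 numbered 16, of which 0 were higher and 3 lower by that measure (median log2 fold change -0.13, which was 0.0066 without UAC1 and -0.06 without CON1). Tnn, tenascin-W, which accompanies tenascin-C in bone and periosteum, averaged 65.2 ± 8.03 FPKM in UAC and 89.0 ± 13.0 FPKM in CON, with groups apart (log2 fold change -0.49 ± 0.17; adjusted p = 0.513 by edgeR). Irx5, a homeobox relative of Mkx, was at 5.52 ± 0.562 FPKM in UAC and 6.57 ± 0.454 FPKM in CON (log2 fold change -0.30; adjusted p = 0.534 by edgeR), and Dpp9, a peptidase relative of Fap, had a log2 fold change of -0.26 with overlapping groups (adjusted p = 0.514 by edgeR). Tgfbi, the closest relative of periostin, was at 92.4 ± 22.9 FPKM in UAC and 78.1 ± 9.52 FPKM in CON (log2 fold change 0.20 ± 0.22; adjusted p = 0.816 by edgeR). Its log2 fold change was 0.01 without UAC2, 0.09 without CON3 and 0.40 without UAC1. Cnmd, chondromodulin, the cartilage relative of tenomodulin, had a log2 fold change of 0.56 ± 0.58 (adjusted p = 0.811 by edgeR).

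Among 24 fibroblast and progenitor genes, 2 were higher and 6 lower by that measure (median log2 fold change -0.16). Gli1, a Hedgehog target that marks progenitors, averaged 5.54 ± 0.648 FPKM in UAC and 8.25 ± 0.952 FPKM in CON (log2 fold change -0.62 ± 0.12; adjusted p = 0.448 by edgeR and 0.00459 by DESeq2). Cd34, found on stromal progenitors and endothelium, was at 11.0 ± 1.10 FPKM in UAC and 15.0 ± 1.47 FPKM in CON (log2 fold change -0.50 ± 0.12; adjusted p = 0.448 by edgeR and 0.0437 by DESeq2). Eng, endoglin, was at 9.78 ± 1.12 FPKM in UAC and 12.7 ± 0.448 FPKM in CON (log2 fold change -0.41; adjusted p = 0.478 by edgeR). Vim, the intermediate filament of mesenchymal cells and the most abundant of the list, was at 563 ± 87.1 FPKM in UAC and 537 ± 45.1 FPKM in CON (log2 fold change 0.03; adjusted p = 0.973 by edgeR), and its sign turned with a library left out. Of the 24 genes, 16 had a negative log2 fold change.

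**Figure D4:**
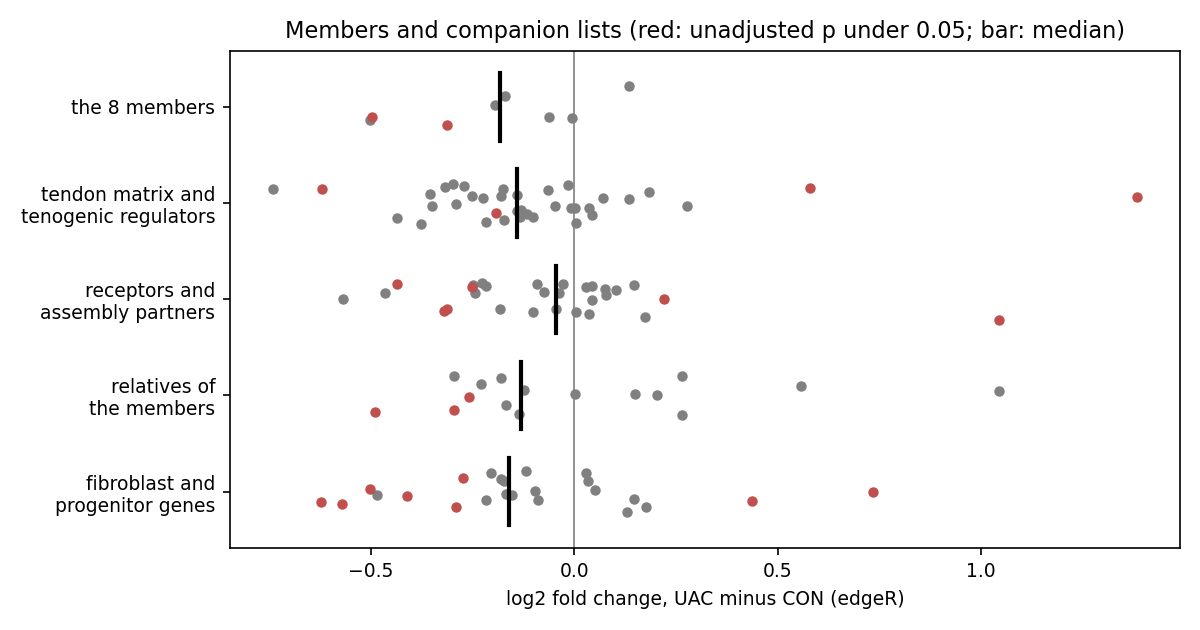
Log2 fold change, UAC minus CON (horizontal axis), of the 8 genes and of the genes tested in the 4 lists around them, red where the edgeR p was under 0.05 before adjustment, with the median as a black bar and points spread vertically for legibility. The medians lie between -0.18 for the 8 genes and -0.05 for receptors and partners, and red points lie on both sides of 0 in 3 of the 4 lists.

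The share of fibrous tissue in a dissected condyle can vary, so each gene was also set against 3 matrix genes of the same library: Col2a1 and Acan of cartilage and Col1a1 of fibrous tissue and bone. Of 24 such log2 ratios, 22 overlapped between groups and 2 were lower in every UAC library, Postn over Acan by -0.51 and Mkx over Acan by -0.59. Both had p = 0.1 (exact permutation test, 2-sided), the smallest that 3 against 3 libraries allow, and an adjusted p of 0.9 over the 24 ratios. Postn over Acan was 1.42, 0.94 and 1.27 in UAC1 to UAC3, against 1.44, 1.97 and 1.75 in CON1 to CON3, so the gap was that between UAC1 and CON1. Set against Col2a1 the Postn difference was -0.44 (exact permutation p = 0.3), and set against Col1a1 it was -0.21 (exact permutation p = 0.7). Tnc differed by -0.32 against Acan and -0.25 against Col2a1 (exact permutation p = 0.2 and 0.5), and by -0.02 against Col1a1 (exact permutation p = 0.9), with means of -6.48 ± 0.211 in UAC and -6.46 ± 0.0218 in CON (SD, n = 3 each).

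Markers of other tissues also differed between libraries. The 5 osteoclast markers summed to 1880 to 2295 FPKM in UAC and 2500 to 2917 FPKM in CON, apart in the same direction as Postn and Tnc, with p under 0.05 before adjustment for 3 genes that were lower and 1 that was higher. The 7 bone markers summed to 3255 to 3781 FPKM in UAC and 3621 to 4080 FPKM in CON and overlapped, but 2 of them, Ibsp and the osteoblast factor gene Sp7, were lower with p under 0.05 before adjustment. Ibsp, bone sialoprotein, was at 353 to 380.2 FPKM in UAC and 517 to 545 FPKM in CON, and Alpl, the bone alkaline phosphatase, at 186 to 199 FPKM in UAC and 204 to 218 FPKM in CON, both apart in the direction of Postn, Tnc and Col1a1, although Alpl did not reach that p. The 5 macrophage markers summed to 140 to 160 FPKM in UAC and 165 to 188 FPKM in CON, also apart. That gap came from Cd68 and Csf1r. Adgre1, C1qa and Cd163 overlapped, and the median log2 fold change of the list was -0.02. The 7 neutrophil and marrow markers summed to 3758, 2106 and 2613 FPKM in UAC, against 1819, 1937 and 2111 FPKM in CON, and the 5 B and plasma cell markers to 124 to 179 FPKM in UAC and 69.5 to 109 FPKM in CON. Of these 5, the plasma cell genes Jchain and Mzb1 were higher in every UAC library. The B cell genes Cd79a, Cd79b and Ms4a1 overlapped. Muscle RNA was uneven, the 11 markers with a row of 14 listed summing to 294 FPKM in UAC1, 37.6 in UAC2 and 32.5 in UAC3, against 114, 187 and 86.8 FPKM in CON1 to CON3. Adipocyte markers had a median log2 fold change of 1.30, with 2 of the 4 tested higher at p under 0.05 before adjustment. Adipoq, adiponectin, was at 0.892 to 1.56 FPKM in UAC and 0.204 to 0.290 FPKM in CON, while the sums of the list overlapped at 39.7 to 70.1 FPKM in UAC and 39.1 to 61.4 FPKM in CON. UAC1, the lowest library for 5 of the 8 genes, thus had the highest sums of neutrophil and marrow markers and of muscle markers. At 1645 FPKM it also had the lowest sum of 9 chondrocyte markers, where the other libraries had 2090 to 3305 FPKM. Its sum of erythroid (red blood cell) markers, 945 FPKM, was below the 1216 FPKM of UAC2. Its sum of B and plasma cell markers was no higher than that of UAC2. The part of these tissues in the differences of Postn and Tnc was not tested. Without UAC1, Postn and Tnc still had log2 fold changes of -0.34 and -0.25, at unadjusted edgeR p-values of 0.0759 and 0.0743.

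The 4 superficial zone markers (Prg4, Cilp, Clu and Abi3bp), genes of the joint surface, summed to 44.8, 33.0 and 58.3 FPKM in UAC, against 45.4, 46.6 and 38.5 FPKM in CON. Within each group this sum put the libraries in the same order as Scx did, lowest in UAC2 and CON3 and highest in UAC3 and CON2. Of the 4 genes taken singly, only Abi3bp had that order. Prg4 was highest in CON1, Clu was lowest in CON1 and Cilp was lowest in UAC3. With 3 libraries a group this order is only a description. Neither the sum nor Scx separated the groups.

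**Figure D5:**
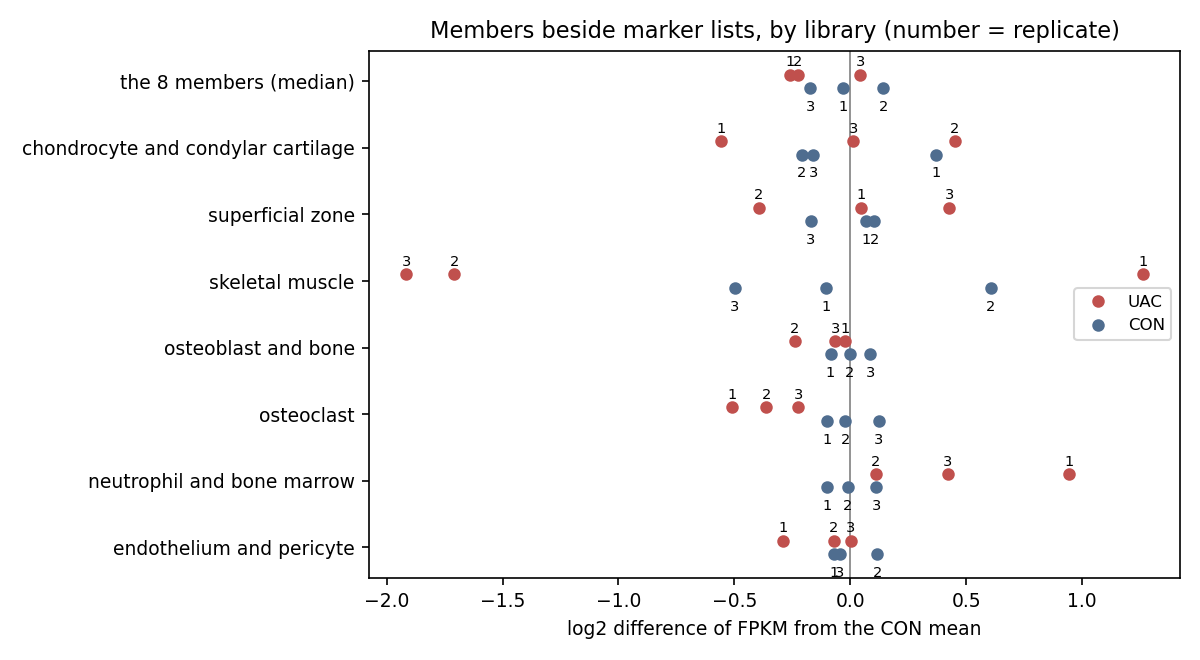
Log2 difference from the CON mean (horizontal axis) in each library, UAC in red above and CON in blue below, numbered by replicate, for the median of the 8 genes and for the summed FPKM of 7 marker lists. Osteoclast sums lie lower in all UAC libraries, while UAC1 has the highest sums of the muscle list and of the neutrophil and marrow list and the lowest chondrocyte sum.

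Circular RNAs, which arise by back-splicing and were counted by the reads across the closing junction, were listed at 4 of the 8 loci. There were 11 of them among 7294 in the table, 6 at Fn1, 2 at Tnc, 2 at Fap and 1 at Postn, and 10 of the 11 were seen in a single library. Together they had 4, 2 and 5 junction reads in UAC1 to UAC3, against 3, 6 and 0 in CON1 to CON3, and none had more than 3 reads in any library, so no difference could be detected at this depth. None was abundant enough to be among the 53 fitted, and both at Tnc lie on the strand opposite to the gene.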

How the data were processed

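Total RNA of condylar cartilage, depleted of ribosomal RNA, was sequenced on an Illumina instrument as 3 UAC and 3 CON libraries. Per the submitters' processing notes, cutadapt 1.9 and FastQC were used for trimming and quality control. The authors aligned the reads (Bowtie2, Hisat2), built transcripts per library with StringTie, combined these with Perl scripts and took expression values from StringTie and edgeR. No source used here states the genome build, the annotation, the versions of the aligners or whether counting used strand.

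The deposited gene table holds whole-number counts per gene and FPKM, which the authors scaled to gene length and library. The deposited lncRNA table holds FPKM per transcript and mean read coverage, of which the coverage was not used. The deposited circRNA table holds junction read counts and the authors' SRPBM score, which was not used.

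Genes whose FPKM averaged 0.1 or more entered a fit of the counts by the quasi-likelihood test of edgeR 4.0.16 (R 4.3.3), with TMM factors and no covariate, the study's tool, with Benjamini-Hochberg adjustment over all genes and a threshold of 0.05. Standard errors and 95% intervals come from this fit. lncRNA transcripts were fitted with limma 3.58.1 on log2(FPKM + 0.1) and circRNA counts with edgeR. Ratios within a library were compared by exact permutation over the 20 assignments of libraries. Alternatives were other filters, median-ratio scaling, a robust fit, DESeq2 1.42.0, limma on log2(FPKM + 0.1) and log2(FPKM + 1), protein-coding genes only, all rows of a symbol summed, a term for replicate number, and each library left out in turn. The edgeR, DESeq2 and limma fits were tested on simulated data. There edgeR recovered 70 of 100 genes changed by a log2 fold change of 1 in either direction, and 100 of 100 changed by 2. The changed genes all had a mean count of at least 100, and smaller changes were not simulated. Every simulated gene was given the same fixed dispersion, not that of these libraries, so these shares do not give the detection rate in the real data. There, Angptl7 and Ccn2 had log2 fold changes of 1.38 and 1.04 and were not called (adjusted p = 0.441 and 0.452 by edgeR).

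All 8 members were named, in each list around them the 3 genes with the smallest unadjusted p and the most abundant gene, and for each member the 2 protein-coding genes (mean FPKM of at least 1) with the nearest pattern. Itga5, Itgb1, Cnmd, Ibsp, Sp7, Alpl and Adipoq were named after their values were seen. The members and lists were chosen with earlier results of these data known. Promoters were matched by symbol to RefSeq. Counting error, taken at the mean count over all 6 libraries, was at most 1.32% for Postn, Tnc, Fn1, Prrx1 and Fap and 7.37% to 7.91% for Scx, Tnmd and Mkx.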

Additional observations from a re-analysis of the deposited data

How the results depend on the processing

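Under 17 alternatives, 6 of them leaving out a library, none of the 8 genes passed the adjusted threshold, and adjusted p-values of Postn ran from 0.199 to 0.850 and those of Tnc from 0.205 to 0.855. Postn had an unadjusted p under 0.05 in 12 of the 17 and Tnc in 10. The count of members at that level was 2 in the edgeR fit of all libraries, 1 with either limma fit and 1 with the replicate block, and 0 to 2 with a library left out (0 without CON1, CON2 or UAC1, and 1, Postn, without CON3). The median of the 8 log2 fold changes stayed between -0.31 and -0.10 with a library left out and between -0.18 and -0.11 otherwise. Genes in the lists around the 8 that passed the adjusted threshold numbered 6 with DESeq2 and 0 in the other fits counted (rows of a symbol were not summed for these lists); the cause was not tested. With a library left out, the list medians ran from -0.19 to -0.10 for tendon genes, -0.13 to -0.02 for receptors, -0.16 to 0.0066 for relatives and -0.24 to -0.08 for fibroblast genes.

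Prrx1, whose log2 fold change was near 0, had the opposite sign with DESeq2 (8.04e-04), rows of the symbol summed (0.013), limma on log2(FPKM + 0.1) (0.038), limma on log2(FPKM + 1) (0.035), a mean FPKM of at least 1 (0.0017), median-ratio scaling (7.77e-04), no filter (9.40e-04) and protein-coding genes only (0.027). With each library left out, the sign also turned for Tnmd (-0.11 to 0.68), Fn1 (-0.17 to 0.014), Scx (-0.36 to 0.066), Prrx1 (-0.10 to 0.12) and Vim (-0.13 to 0.12). Mkx ran from -0.84 to -0.24 and Fap from -0.31 to -0.05 without a change of sign. Mkx without UAC2 and Fap without UAC3 reached unadjusted edgeR p-values of 0.0243 and 0.0220.

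Libraries with the same replicate number did not deviate together (correlations of -0.016, -0.0064 and -0.027), so the numbers were not used as pairs. With replicate number as a block, edgeR called 0 of 30668 genes (2207 at an unadjusted p under 0.05), against 6 without it, and the unadjusted p was 0.0401 for Postn and 0.0617 for Tnc. Depth limits Scx, Mkx and Tnmd, at 86 to 245 counts per library, and the circRNAs.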
